A study of Homo sapiens with 4 samples.

Results

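A set of 10 genes of the BMP, activin and ID families was followed in RNA-seq of the human ovarian cancer cell line SKOV3 by matching their symbols in a table of 19475 gene symbols. They comprise the BMP ligands BMP2, BMP4 and BMP7, the activin subunits INHBA and INHBB, the activin antagonist FST (follistatin), the transcriptional regulators ID1, ID2 and ID3, and the inhibitory SMAD gene SMAD6, and all 10 were listed. Where a gene had several transcripts, the values are those of the transcript with the largest mean FPKM over all libraries. The study compared 2 libraries of cells on a tissue culture plate (TCP), labelled day 0, with 2 libraries of tumor spheroids formed on plates coated with polymer X, a polymer thin film, labelled day 8. The labels name no further treatment or genetic change in either group. The study's methods describe fetal bovine serum for routine SKOV3 culture and serum replacement for spheroids, whereas a single protocol naming serum replacement is attached to every library. Substrate and culture time, and possibly medium, changed together between the groups and cannot be told apart. Nothing in the labels says that the replicates came from separate cultures, so the p-values measure only the spread between these libraries.

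BMPs and activins are secreted dimers of the TGF-beta superfamily. They bind pairs of type I and type II serine/threonine kinase receptors. BMP receptors phosphorylate SMAD1, SMAD5 and SMAD9, whereas activin receptors phosphorylate SMAD2 and SMAD3, and both groups then act with SMAD4. ID1, ID2 and ID3 are classical targets of BMP signaling. Their proteins carry a helix-loop-helix domain without a DNA-binding region and hold E proteins such as TCF3 away from DNA. SMAD6 is another BMP target and acts as a feedback inhibitor. Follistatin binds activins and blocks their access to the receptor. BMP signaling has been studied in ovarian cancer cells in connection with growth, adhesion and stem-like properties, and ID genes with proliferation and arrested differentiation.

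The deposited unit was FPKM, which scales the tags on a transcript's exons to its length and to the depth of the library. The low values fell on whole numbers of tags, which put the libraries at 38403000 to 44915000 tags. Replicates correlated at 0.998 (TCP) and 0.997 (polymer X) over tested genes, against 0.854 to 0.862 for pairs of libraries from different conditions. A gene was tested where its FPKM was at least 1 in at least 2 libraries, which left 11964 genes. The test was limma on log2(FPKM + 1) with Benjamini-Hochberg adjustment over all of them. In what follows, "rose" and "fell" mean an adjusted p under 0.05, and "called" means in addition a log2 fold change of 1 or more in size. On this scale the change of a gene with low FPKM is understated, and the median log2 fold change of all tested genes was -0.06. With 2 libraries a group, the smallest two-sided p of an exact permutation test is 0.333, and the limma values therefore depend on variance information shared among genes. Of 11 epithelial genes listed as markers, ERBB2 and the keratin gene KRT8 were the most abundant. ERBB2, the receptor gene amplified in this line, was at 202 ± 5.15 FPKM (SD, n = 2) on TCP and 887 ± 37.4 on polymer X. KRT8 was at 265 ± 5.18 and 144 ± 1.96. On TCP, EPCAM (0.136), KRT19 (0.39) and CLDN3 (0.90) had means under 1 FPKM.

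The clearest change was in BMP4, which was 15.7-fold higher in mean FPKM on polymer X, while ID3 and SMAD6 were called lower, at 2.60-fold and 2.33-fold lower mean FPKM. Of the 10 genes, 7 were tested, and 1 of them was called higher and 2 were called lower. Over all tested genes, 10.7% were called higher and 9.45% lower, or 20.2% either way, so the counts alone do not set the family apart. Without the fold change minimum, 3 rose and 4 fell, that is, all 7 tested genes, beside a background of 37.4% and 43.6%, or 81% either way. The libraries of the groups did not overlap for any of the 7 tested genes, beside 90.4% of all tested genes. For BMP4 this separation and its direction were set by the filter, which BMP4 passed through polymer X alone. Of the 3 untested genes, the FST libraries overlapped, and the INHBB libraries were apart in FPKM by no more than a few tags. All 3 BMP ligands of the set were higher on polymer X, and INHBA was lower. Of the ID genes in it, ID2 was higher while ID1 and ID3 were lower.

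**Figure D1:**
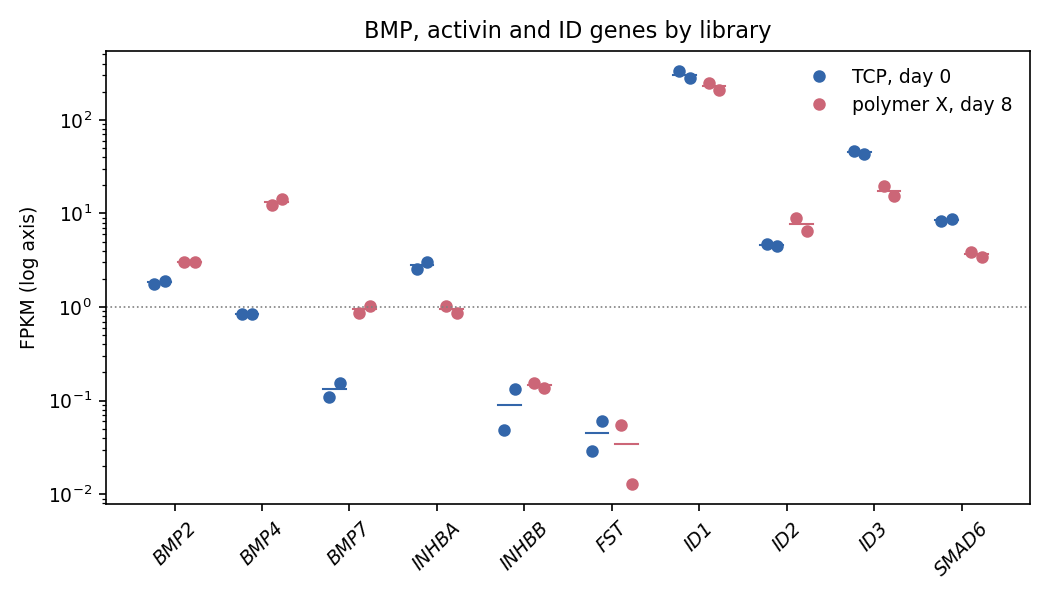
FPKM (log axis) of the 10 genes in each of the 4 libraries, with points for single libraries (blue, TCP at day 0; red, polymer X at day 8), short lines for the mean of each group and a dotted line at an FPKM of 1. BMP4 moves from under 1 to over 12 FPKM, ID1 is at 209 or higher in every library, and the FST libraries overlap.

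On TCP the levels, which are scaled to transcript length, ran from high to low in the order ID1, ID3, SMAD6, ID2, INHBA, BMP2, BMP4, BMP7, INHBB and FST. BMP7 and INHBB overlapped there, as did INHBB and FST. On polymer X, BMP4 held the third place by mean FPKM, after ID1 and ID3, and SMAD6 moved from the third to the fifth. INHBA and BMP7 did not differ beyond their spread on polymer X, at 0.95 ± 0.115 and 0.942 ± 0.102 FPKM (SD, n = 2).

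BMP4 (NM_001347915, hg19 chromosome 14, 54416455 to 54420193, minus strand) encodes a secreted BMP that signals through type I receptors such as BMPR1A. It stood at 0.841 and 0.853 FPKM in the TCP libraries and at 12.2 and 14.3 FPKM in the polymer X libraries. Both polymer X libraries were far above both TCP libraries, and each pair of replicates lay close together. By limma the log2 difference was 2.94 ± 0.09 (SE, adjusted p = 5.1e-09), above 99.4% of the tested genes. The TCP values rest on 54 and 64 tags and the polymer X values on 816 and 973, a tag ratio of 15.7 with a 95% counting interval of 13 to 19. BMP4 passed the filter on low values through its polymer X libraries alone. The file lists 9 transcripts of BMP4 with overlapping spans. Their log2 fold changes lay between 2.79 and 2.94, but transcripts that share exons share tags, and counts on exons do not show which start was used.

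BMP2 (NM_001200, chromosome 20, 6748745 to 6760925, plus strand), the closest relative of BMP4 among the ligands, changed much less. It was at 1.77 and 1.92 FPKM on TCP and at 3.04 and 3.05 FPKM on polymer X. The groups did not overlap, and the polymer X libraries were nearly equal. BMP2 rose by limma, at a log2 difference of 0.51 ± 0.08 (SE, adjusted p = 1.8e-04), below the minimum for a call. This value was 0.26 under quantile normalization, where the adjusted p was 0.0138.

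BMP7 (NM_001719, chromosome 20, 55743809 to 55841707, minus strand), a ligand that preferentially uses the type I receptor ACVR1, was listed at low levels. Its FPKM was 0.110 and 0.155 on TCP and 0.870 and 1.01 on polymer X. Only 1 library reached an FPKM of 1, so BMP7 was not tested in the filtered set. The groups were well separated, with 45 tags in the TCP libraries together and 306 in the polymer X libraries, a ratio of 7.02 with a 95% counting interval of 5.12 to 9.83. With no filter on low values, its adjusted p was 0.0053 from limma and its log2 fold change 0.78.

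The makeup of the BMP ligand transcripts thus differed between the groups. The summed FPKM of BMP2, BMP4 and BMP7 was 2.72 and 2.92 on TCP and 16.1 and 18.4 on polymer X. BMP4 made up 30.9% and 29.2% of this sum on TCP and 75.7% and 77.9% on polymer X, while the share of BMP2 was 65.3% ± 0.319 and 17.7% ± 1.63 (SD, n = 2). BMP2 was the most abundant of the 3 ligands in both TCP libraries and BMP4 in both polymer X libraries.

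**Figure D2:**
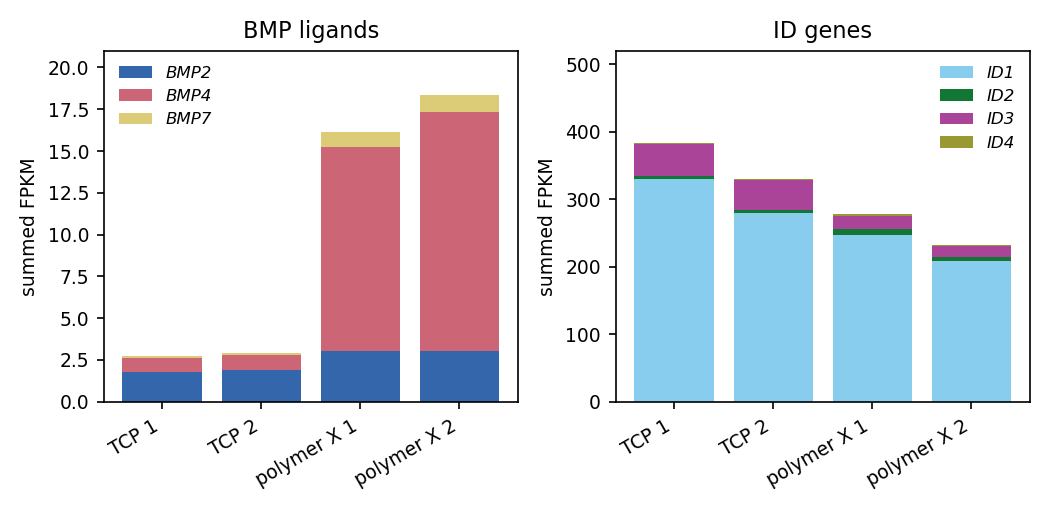
Summed FPKM of BMP2, BMP4 and BMP7 (left) and of ID1, ID2, ID3 and ID4 (right), stacked by gene in each of the 4 libraries. On the left the BMP4 part grows from 29.2% to 30.9% of a low column to 75.7% to 77.9% of a high one, and on the right the columns fall while ID1 remains the main part.

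INHBA and INHBB encode the subunits of activin A and activin B. INHBA (NM_002192, chromosome 7, 41724712 to 41742706, minus strand) was at 2.53 and 3.04 FPKM on TCP and at 1.03 and 0.868 FPKM on polymer X. Both polymer X libraries lay below both TCP libraries, and mean FPKM was 2.93-fold lower. INHBA fell by limma, at a log2 difference of -0.96 ± 0.09 (SE, adjusted p = 1.0e-05) and was just under the minimum for a call. It was called with a pseudocount of 0.1 (-1.46), under quantile normalization (-1.38), without TCP replicate 1 (-1.05) and without polymer X replicate 1 (-1.02). INHBB (NM_002193, chromosome 2, 121103718 to 121109384, plus strand) was near the limit of detection, at 0.049 and 0.132 FPKM on TCP and 0.156 and 0.138 FPKM on polymer X. These values stand for 6 and 19 tags on TCP and for 20 and 18 on polymer X. The tag ratio of 1.57 had a 95% counting interval of 0.923 to 2.71, so no difference was detectable at this depth.

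FST (NM_013409, chromosome 5, 52776264 to 52782304, plus strand) was near the floor of detection, set here at 3 tags, in every library. It was listed at 0.029 and 0.061 FPKM on TCP and at 0.055 and 0.013 FPKM on polymer X, which stand for 2, 5, 4 and 1 tags. The groups overlapped, and the tag ratio of 0.737 had a 95% counting interval of 0.185 to 2.70. Neither INHBB nor FST was tested in the filtered set. With no filter, their adjusted p was 0.334 and 0.805 from limma. The counting intervals cover counting error only. Even numbers made up 51.0% to 56.0% of the low tag numbers, and the intervals are too narrow where both mates of a read pair were counted. The ratio of BMP4 to INHBA in FPKM was 0.332 and 0.281 in the TCP libraries and 11.8 and 16.5 in the polymer X libraries, so the more abundant of these ligand transcripts changed from INHBA to BMP4.

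The promoters of the ID genes and of SMAD6 are shown because these genes are BMP targets that did not move as a block. A promoter entry in RefSeq (GRCh38.p14) was matched for 8 of the 10 genes. Printed are the 250 bases before the annotated start, 5′ to 3′ on the strand of the gene, with matches to 3 SMAD motifs in capitals. The motifs, chosen after the sequences were seen, were CAGAC (a SMAD binding element), GTCTAGAC (a palindrome of the element's core) and GGCGCC (a GC-rich element bound by SMAD1 and SMAD5), each searched on both strands. No match of 1 motif overlapped that of another in these 4 sequences.
ID1 (chr20:31605039-31605288, plus strand): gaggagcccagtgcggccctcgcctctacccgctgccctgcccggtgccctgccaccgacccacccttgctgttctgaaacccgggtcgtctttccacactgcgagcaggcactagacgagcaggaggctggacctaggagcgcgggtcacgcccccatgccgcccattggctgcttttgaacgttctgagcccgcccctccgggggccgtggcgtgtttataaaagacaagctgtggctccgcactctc
ID2 (chr2:8681806-8682055, plus strand): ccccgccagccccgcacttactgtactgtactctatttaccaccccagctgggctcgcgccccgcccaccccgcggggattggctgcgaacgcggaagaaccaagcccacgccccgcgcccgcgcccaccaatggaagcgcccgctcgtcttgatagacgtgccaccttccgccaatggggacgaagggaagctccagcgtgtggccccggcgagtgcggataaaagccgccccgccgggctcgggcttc
ID3 (chr1:23559502-23559751, minus strand): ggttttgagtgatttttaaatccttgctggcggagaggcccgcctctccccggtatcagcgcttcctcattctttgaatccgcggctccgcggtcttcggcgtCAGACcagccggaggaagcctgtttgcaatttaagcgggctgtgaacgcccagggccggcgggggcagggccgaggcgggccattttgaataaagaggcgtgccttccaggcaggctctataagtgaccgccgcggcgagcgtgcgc
SMAD6 (chr15:66701986-66702235, plus strand): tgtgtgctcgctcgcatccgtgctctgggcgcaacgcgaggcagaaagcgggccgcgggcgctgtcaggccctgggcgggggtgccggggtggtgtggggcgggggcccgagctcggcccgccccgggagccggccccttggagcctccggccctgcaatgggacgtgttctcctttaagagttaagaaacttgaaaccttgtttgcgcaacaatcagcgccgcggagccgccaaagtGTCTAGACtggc

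In windows that reach 50 bases past the start, CAGAC or its reverse complement GTCTG occurred in 45.3% of 35116 promoters, GGCGCC in 19.2% and GTCTAGAC in 0.202%. The ID3 promoter held CAGAC at 147 bases before the start, and that of SMAD6 held GTCTAGAC at 12 bases before it. The windows of ID1 and ID2 held none of the 3 motifs, which says only that these letters are not in this stretch. The letters therefore did not separate genes that fell from ID2, which rose, since ID1 also fell and had no match. A match is a description and not a site.

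ID1 (NM_002165, chromosome 20, 30193086 to 30194317, plus strand) was by far the most abundant of the genes. It was at 330.1 and 280.2 FPKM on TCP and at 247 and 209 FPKM on polymer X. The groups did not overlap, but the gap between them (TCP replicate 2 and polymer X replicate 1) was smaller than the difference between the replicates of either group. ID1 fell by limma, at a log2 difference of -0.42 ± 0.10 (SE, adjusted p = 0.0033), a modest change that stood above 30.7% of the tested genes. Under quantile normalization the log2 fold change was -0.07 with an adjusted p of 0.468, and with no filter the adjusted p was 0.122. Over all alternatives the limma adjusted p ranged from 2.5e-08 (with the replicate block) to 0.468.

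ID3 (NM_002167, chromosome 1, 23884421 to 23886285, minus strand) fell more. Its FPKM was 46.6 and 43.5 on TCP and 19.4 and 15.2 on polymer X. Every polymer X value was under both TCP values by more than the spread between replicates. By limma the log2 difference was -1.34 ± 0.10 (SE, adjusted p = 1.4e-06), and it stayed called under all 12 alternatives, between -1.5 and -1.09.

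ID2 (NM_002166, chromosome 2, 8822113 to 8824583, plus strand) went the other way. It was at 4.68 and 4.44 FPKM on TCP and at 8.86 and 6.42 FPKM on polymer X. The groups did not overlap, although the polymer X replicates differed by more than the gap between the groups. ID2 rose by limma, at a log2 difference of 0.62 ± 0.12 (SE, adjusted p = 8.8e-04), short of a call. With no filter its limma adjusted p was 0.082, and over all alternatives it ranged from 7.6e-08 (with the replicate block) to 0.082. ID4, the remaining gene of the family, was at 2.09 ± 0.146 FPKM on TCP and 2.13 ± 0.0156 on polymer X (SD, n = 2), with an adjusted p of 0.810 from limma, and its log2 difference of 0.02 turned to -0.26 under quantile normalization, where it passed the test.

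Within a library, the ratio of ID1 to ID3 in FPKM was 7.08 and 6.45 on TCP and 12.7 and 13.7 on polymer X. The ratio of ID3 to ID2 was 9.97 and 9.79 on TCP and 2.19 and 2.37 on polymer X. These ratios do not depend on the scaling of the libraries, and neither overlapped between the groups, so ID3 fell relative to both other genes. The summed FPKM of ID1 to ID4 was 383 and 330.3 on TCP and 278 and 232 on polymer X. ID1 supplied 85.5% ± 0.897 of this sum on TCP and 89.4% ± 0.516 on polymer X (SD, n = 2), and the share of ID3 was 12.7% ± 0.706 and 6.77% ± 0.315.

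SMAD6 (NM_005585, chromosome 15, 66994674 to 67074337, plus strand) was at 8.34 and 8.67 FPKM on TCP and at 3.85 and 3.47 FPKM on polymer X. Replicates were close in both groups, and the groups were clearly apart. SMAD6 fell by limma, at a log2 difference of -1.03 ± 0.07 (SE, adjusted p = 1.1e-06), just past the minimum for a call. It missed this minimum under median scaling (-0.99) and without polymer X replicate 2 (-0.97), with an adjusted p under 0.05 in all 12 alternatives.

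**Figure D3:**
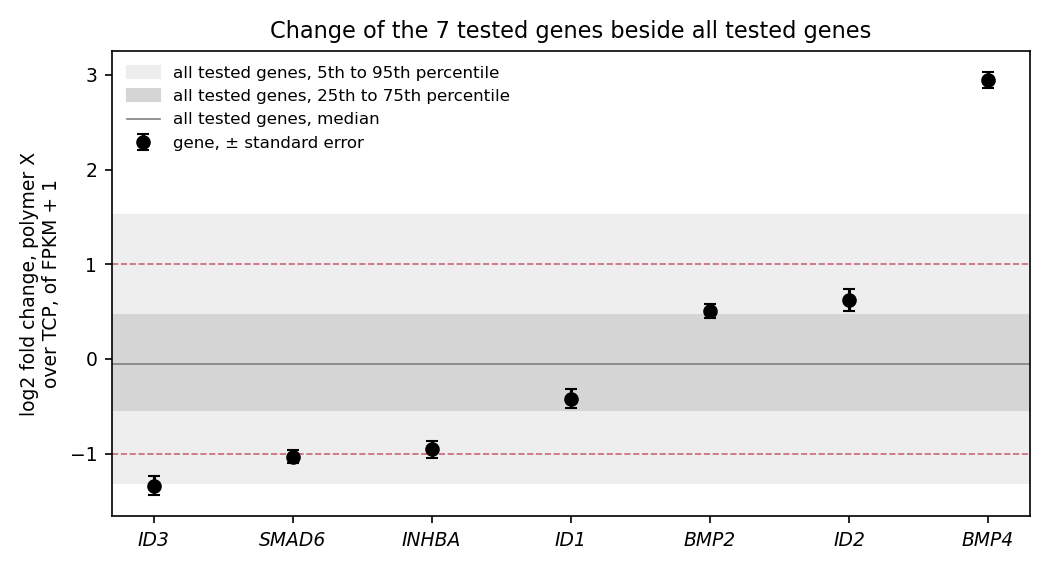
Log2 fold change of polymer X over TCP in FPKM + 1 for the 7 tested genes, as points with bars of 1 standard error, beside the percentiles of all 11964 tested genes (grey bands) and the minimum for a call (dashed lines at -1 and 1). BMP4 at 2.94 lies above the band that holds the 5th to the 95th percentile (-1.31 to 1.52), ID3 at -1.34 lies just below it, and the other 5 lie within it.

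Around these genes, 100 further genes of the pathway were sorted into 7 lists by role, 99 of which were in the file and 61 of which were tested. Of the 61, 4 were called higher and 7 lower, beside 10.7% and 9.45% of all tested genes, and their median log2 fold change was -0.05 against -0.06 over all tested genes. Without the fold change minimum, 24 rose and 25 fell, beside 37.4% and 43.6%. The 11 calls among 61 genes stood beside 20.2% of all tested genes called either way, and the counts of each list below are to be read against the same shares. Like BMP4 above, genes that passed the filter through 1 group alone had to differ. Of the 61, these were BMP8A, BMP8B, GDF15, INHBE, NOG, CHRD, ACVR2B and ENG (polymer X) and GDF6 (TCP).

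Of the 9 tested genes in the list of further BMP and activin ligands, 2 were called higher and 1 lower. Without the fold change minimum 6 rose and 2 fell, beside 37.4% and 43.6% of all tested genes. Of the 6, 4 had passed the filter through polymer X alone. GDF15, a distant member of the superfamily that is induced in stressed cells, was at 0.280 and 0.638 FPKM on TCP and at 38.0 and 35.5 FPKM on polymer X, which is a log2 fold change of 4.70. BMP8B was at 0.893 and 0.837 FPKM on TCP and at 3.00 and 2.84 on polymer X (log2 fold change 1.07, and 0.74 under quantile normalization), and its value is uncertain because its paralog BMP8A shares sequence with it. GDF6 was the ligand called lower, from 2.92 and 2.80 FPKM on TCP to 0.081 and 0.200 on polymer X, which is a log2 fold change of -1.76. GDF9 also fell, from 23.5 ± 5.31 to 16.9 ± 1.79 FPKM (SD, n = 2), a log2 fold change of -0.44. BMP6 neither rose nor fell, at a log2 fold change of 0.12 with an adjusted p of 0.161 from limma. GDF6 and BMP4 were both ligands with large changes, in opposite directions. The filter set these directions, since GDF6 passed it through TCP alone and BMP4 through polymer X alone.

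Of 11 tested receptors and co-receptors, none was called, while 7 rose and 2 fell with limma at an adjusted p under 0.05, beside 37.4% and 43.6% of all tested genes. BMPR2, the main type II receptor for BMPs, fell from 12.4 ± 0.585 to 8.09 ± 0.357 FPKM (SD, n = 2), a log2 fold change of -0.56. ACVR2A, a type II activin receptor, rose by 0.52 on that scale. ACVR2B, another, was at 0.575 and 0.490 FPKM on TCP and at 1.23 and 1.28 on polymer X (0.56), and the co-receptor gene ENG at 0.654 and 0.527 and at 1.51 and 1.60 (0.69). Both were called higher with a pseudocount of 0.1, at 1.10 and 1.27, and both passed the filter through polymer X alone. Over the alternatives the log2 fold change ranged from 0.0033 to 1.10 for ACVR2B and from 0.22 to 1.27 for ENG. The SMAD genes likewise had no call among 7 tested, with 1 higher and 3 lower at an adjusted p under 0.05. SMAD9, a BMP-responsive SMAD, rose by 0.70. Of the other BMP-responsive SMADs, SMAD1 fell (log2 fold change -0.27), and SMAD5 was at 0.04 with an adjusted p of 0.495 from limma. SMAD7, the other inhibitory SMAD, fell from 18.7 ± 1.92 to 10.5 ± 0.120 FPKM (SD, n = 2), a log2 fold change of -0.77, the same direction as SMAD6.

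Among 12 tested extracellular antagonists and modulators, 2 were called higher and 2 lower. CHRD, which encodes the BMP antagonist chordin, went from 0.171 and 0.083 FPKM on TCP to 2.20 and 2.18 on polymer X, which is a log2 fold change of 1.5. PCSK6, a proprotein convertase that can cleave precursors of the superfamily, rose from 1.31 and 1.51 FPKM to 10.1 and 9.63, a log2 fold change of 2.17. NOG, which encodes noggin, rose from 0.258 ± 0.0523 to 1.23 ± 0.162 FPKM (SD, n = 2) at a log2 fold change of 0.82. It was called with a pseudocount of 0.1, and its log2 fold change ranged from 0.21 to 1.89 over the alternatives. In FPKM, NOG stood at 0.304 ± 0.0587 of BMP4 on TCP and at 0.0923 ± 0.00180 on polymer X, and CHRD at 0.150 ± 0.0750 and 0.166 ± 0.0199. The genes called lower were CRIM1, a BMP-binding membrane protein, with a log2 fold change of -1.87, and FSTL1, a follistatin-like glycoprotein, from 403 ± 3.65 to 120 ± 0.427 FPKM (SD, n = 2), a log2 fold change of -1.74. FSTL3, which binds activin as follistatin does, fell from 63.3 ± 0.209 to 31.3 ± 3.06 FPKM (SD, n = 2), a log2 fold change of -0.99, and was called with a pseudocount of 0.1 and without polymer X replicate 2 (-1.09). Over the alternatives the log2 fold change of FSTL3 ranged from -1.09 to -0.70. FSTL3 was expressed far above FST in both groups.

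Of 11 tested intracellular inhibitors, 3 were called lower and none higher, beside 9.45% and 10.7% of all tested genes. Without the fold change minimum 8 fell and 2 rose, beside 43.6% and 37.4%. The 2 that rose were TGIF1, a SMAD corepressor, at 0.25, and TOB1, an antiproliferative protein that binds SMADs, at 0.30. BAMBI, a pseudoreceptor, went from 10.8 ± 0.0184 to 4.68 ± 0.242 FPKM (SD, n = 2), a log2 fold change of -1.06. SMURF2, a ubiquitin ligase that acts on SMADs and receptors, fell by 1.12 on the log2 scale and missed the call under quantile normalization (-0.97). PMEPA1, which dampens SMAD2 and SMAD3 signaling, fell from 31.1 ± 1.48 to 10.4 ± 0.540 FPKM (SD, n = 2), a log2 fold change of -1.49.

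Of 9 tested transcription factors that BMPs can induce, 1 was called lower and none higher, with 4 rising and 3 falling at an adjusted p under 0.05. HES1, also a Notch target, fell from 33.9 and 31.9 FPKM to 6.23 and 5.81, a log2 fold change of -2.27. RUNX2 (-0.60) and MSX1 (-0.25) also fell. The 4 that rose were HEY1 (0.59), TBX2 (0.58), KLF10 (0.48) and MSX2 (0.19). Among the E proteins that ID proteins bind, 2 were tested, and TCF3 fell from 55.6 ± 0.862 to 36.7 ± 0.202 FPKM (SD, n = 2), a log2 fold change of -0.59. The other, TCF12, was at 0.09 with an adjusted p of 0.228 from limma.

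**Figure D4:**
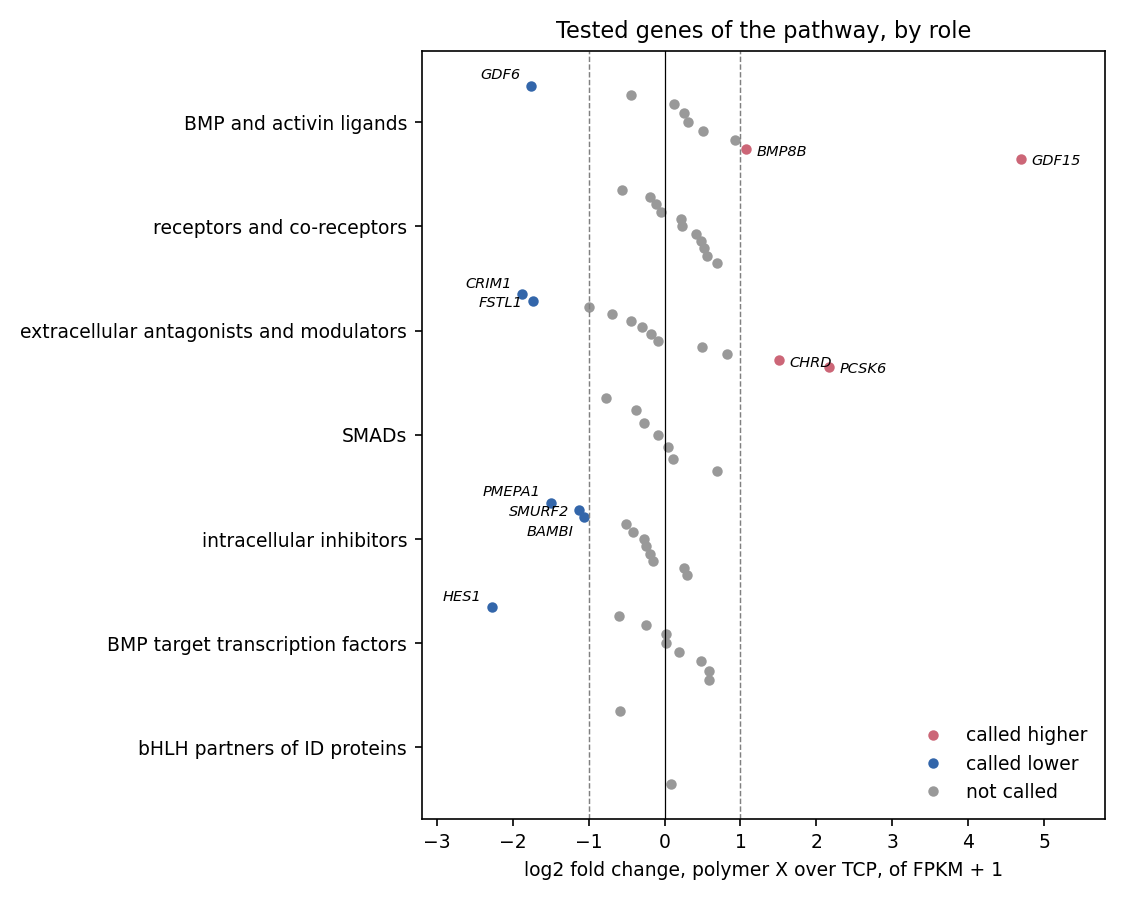
Log2 fold change of polymer X over TCP in FPKM + 1 for the 61 tested pathway genes outside the 10 genes of the family, 1 point per gene, in rows by role, with dashed lines at -1 and 1 and names beside the 11 called genes (red, higher; blue, lower). GDF15 at 4.70 stands far to the right, and the called genes among the intracellular inhibitors all lie to the left.

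Marker genes of cells other than tumor cells were also measured. The study describes SKOV3 cells alone in these cultures, and the source of the transcripts of these markers was not tested. Of 10 leukocyte markers, 4 (CD3E, CD3D, MS4A1 and TYROBP) were at 0 in all libraries, and the summed FPKM of the list was 17.3 to 17.5 on TCP and 43.3 to 46.0 on polymer X, most of it from CD68, a lysosomal protein that many cells express. PTPRC, which defines leukocytes, was at 0.005 and 0 FPKM on TCP and at 0.468 and 0.530 on polymer X. The 7 endothelial markers summed to 0.616 to 0.641 FPKM on TCP and to 0.634 to 0.987 on polymer X, with none tested. PECAM1 was at 0 in both TCP libraries and at 0.573 and 0.458 FPKM on polymer X, and KDR was at 0.476 and 0.438 on TCP and at 0.215 and 0.110 on polymer X. Of 8 fibroblast and mural markers, 3 of 4 tested (DCN, COL1A2 and ACTA2) were called higher, beside 10.7% of all tested genes, with sums of 18.2 to 18.8 FPKM on TCP and 55.7 to 60.0 on polymer X. DCN, which encodes decorin, was at 0.025 and 0 FPKM on TCP and at 7.26 and 6.20 on polymer X, and like ACTA2 it passed the filter through polymer X alone. THY1, RGS5 and PDGFRB were untested and had lower means on polymer X, at 0.161 and 0.0245, 0.644 and 0.401, and 0.0945 and 0.0705 FPKM. PDGFRA, also untested, was higher there, at 0.103 and 0.084 FPKM on TCP and 0.254 and 0.291 on polymer X. COL1A2 was called higher, at 8.58 ± 0.240 FPKM on TCP and 44.0 ± 2.58 on polymer X (SD, n = 2), whereas COL1A1 fell with a log2 fold change of -0.96. Of the 11 epithelial markers, 5 of 10 tested were called higher and none lower, beside 10.7% and 9.45% of all tested genes. The 5 include EPCAM and CLDN3, which passed the filter through polymer X alone and so had to be higher there. The others were ERBB2, PAX8 and MUC1, with log2 fold changes of 2.13, 1.06 and 2.63. FOLR1 (0.99) and MSLN (0.55) rose short of a call. Without the fold change minimum 7 rose and 3 fell, beside 37.4% and 43.6% of all tested genes. The keratin genes KRT7, KRT8 and KRT18 fell, by log2 fold changes of -0.76, -0.87 and -0.44. The list summed to 654 to 666 FPKM on TCP and 1250 to 1300 on polymer X, but without ERBB2 the sums were 456 to 461 and 386 to 389. The part of these shifts in the changes of BMP4, ID3 and SMAD6 was not tested.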

How the data were processed

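RNA-seq of SKOV3 cells was analysed in 4 libraries, 2 on TCP and 2 on polymer X, grouped by their sample titles. The authors deposited FPKM values for 50078 RefSeq transcripts of hg19, counted with HOMER per the file headers on exons of both strands. The submitters' processing notes also name STAR 2.4.0 and DESeq. Read trimming and the HOMER version were not given in the sources used here. Since strand was not used, tags of antisense genes cannot be told apart, and RefSeq (GRCh38.p14) places BMP7-AS1 and INHBA-AS1 over BMP7 and INHBA. No listed transcript of another gene overlapped the 10 genes.

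Of 19475 symbols, 10500 had several transcripts, and the one with the largest mean over the libraries stood for its symbol. The test required an FPKM of 1 or more in 2 libraries. It used log2(FPKM + 1) and limma (version 3.58.1, R version 4.3.3) with a variance trend and without the replicate block. A call needed an adjusted p under 0.05 together with a log2 fold change of 1 or more in size. The study's methods state no test for single genes of the RNA-seq. Low values came within 0.1 of whole tags at the totals given, and counting intervals are 95% exact binomial intervals on tags pooled by group. For a transcript of 2000 bases, 3 tags stand for an FPKM of 0.0334 to 0.0391. The procedure was tested on simulated data. These had the same dispersion for every gene and far fewer changed genes than the real libraries, so they give no error rate for the calls here. The alternatives were a pseudocount of 0.1, no filter, a mean FPKM minimum of 5, quantile normalization, median scaling, the replicate block, summed transcripts, no variance trend, no fold change minimum and each library left out in turn.

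The members and lists were chosen with earlier results of these data known. Named were all 10 members, every called gene of the role lists (no list had more than 4) and the 2 most abundant genes of each marker list. Other named genes (BMP6, GDF9, BMPR2, ACVR2A, ACVR2B, ENG, SMAD1, SMAD5, SMAD7, SMAD9, NOG, FSTL3, ID4, HEY1, TBX2, KLF10, MSX1, MSX2, RUNX2, TCF3, TCF12, TGIF1, TOB1, BMP8A, INHBE, DCN, ACTA2, THY1, RGS5, PDGFRA, PDGFRB, KRT7, KRT18, KRT19, EPCAM, CLDN3, PAX8, MUC1, FOLR1, MSLN and the markers at 0) were chosen after their values were seen. Plots were drawn with matplotlib 3.10.9.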

Additional observations from a re-analysis of the deposited data

How the results depend on the processing

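The directions of the 7 tested genes held in every alternative that tested them, but most alternatives could not reverse them. The groups did not overlap for these genes, so neither the pseudocount nor leaving out a library could change a direction. The filters, the block and the variance trend leave the log2 fold change as it is. A reversal was possible only under quantile normalization, median scaling and, for BMP4 and ID1, summed transcripts. At an adjusted p under 0.05, ID1 was lost with no filter (-0.42, adjusted p = 0.122) and under quantile normalization (-0.069, adjusted p = 0.468), and ID2 with no filter (0.62, adjusted p = 0.082); the cause was not tested. At a mean FPKM of at least 5, BMP2 and INHBA were not tested. With a pseudocount of 0.1, the log2 differences of the untested genes were 2.17 for BMP7, 0.41 for INHBB and -0.12 for FST. Fits that leave out 1 library assume that the lone library varies like the other group.

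Of the 10 genes, 3 were higher and 4 lower with no fold change minimum, where over all genes 4477 and 5212 were, and 24 and 25 of the pathway genes. With median scaling, 1 was called lower, as without polymer X replicate 2. A mean FPKM of at least 5 left 702 genes called higher, with 42.2% of the calls higher against 53.2%, and 2 of the pathway genes. A pseudocount of 0.1 gave 8 pathway genes called higher.

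Leaving out each library in turn gave 1289 to 1325 genes called higher and 1053 to 1234 lower, with 1 of the 10 genes higher and 1 to 3 lower. The log2 fold change then ranged from 2.84 to 3.05 for BMP4, 0.47 to 0.55 for BMP2, -1.05 to -0.86 for INHBA, -0.54 to -0.30 for ID1, 0.42 to 0.83 for ID2, -1.5 to -1.17 for ID3 and -1.09 to -0.97 for SMAD6.

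With the replicate number as a block, BMP4 had a log2 fold change of 2.94 and ID3 of -1.34, with no change of call among the 10 genes and with 1285 genes called higher and 1131 lower, as without it. In this balanced layout the block could not change a log2 fold change, only its standard error and p-value. The correlation of deviations from the group means was 0.093 for libraries of equal number, too low to treat them as pairs. Depth limits INHBB and FST, with at most 20 tags in any library.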
